A study of Mus musculus with 4 samples.

Results

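The clustered protocadherins are cadherin-family adhesion proteins that are best known from neurons. Their genes lie in 3 tandem clusters, alpha, beta and gamma, and nearly every member has its own first exon with its own promoter. In the alpha and gamma clusters each first exon is spliced to constant exons shared by the cluster, whereas the beta genes are single-exon genes. Each neuron uses only a few of these promoters, and DNA methylation of the promoter and first exon is known to accompany silence of a member. The last members of the alpha and gamma clusters, called C-type, are known to be regulated apart from the others. All protocadherin genes of the clusters are transcribed toward higher coordinates on mouse chromosome 18.

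Members were the genomic probes of a promoter tiling array whose position, in build mm9, lies in the stretch of chromosome 18 that holds the 3 clusters. They numbered 468 of 174638 probes and formed 60 tiles, a tile being a run of probes no more than 1000 bp apart. The alpha cluster had 114 probes in 14 tiles (chr18:37088786-37303991), the beta cluster 171 in 22 (chr18:37423352-37678488) and the gamma cluster 170 in 22 (chr18:37820307-37979422). A further 13 probes in 2 tiles lay in the interval between beta and gamma (chr18:37797880-37804916). The gene table used here, of another build (GRCm38), lists the same numbers in the same order. It has 14 alpha genes ending with Pcdhac1 and Pcdhac2, 22 beta genes, Slc25a2 and Taf7 in the interval, and 22 gamma genes ending with Pcdhgc3, Pcdhgc4 and Pcdhgc5. Because the builds differ, tiles are named here by cluster and by their number along it (alpha 1 to alpha 14 and so on) and not by gene. Tiles held 5 to 9 probes, with a median of 8, and spanned 1134 to 1799 bp. The nearest tiles outside the stretch were chr18:37078744-37080277 with 7 probes, whose median IP net signal was 17 to 22.5 over the arrays, and chr18:38094580-38096251 with 8 probes and 36.9 to 44.6.

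The arrays measured DNA recovered with an antibody against 5-methylcytosine (methylated DNA immunoprecipitation, IP, labelled with Cy5) together with input DNA (Cy3) from 3T3-L1 cells, a mouse embryo fibroblast line that can be induced to become adipocytes. Unmodified (wild type) cells were the control, and the other line was stably transfected with slincRAD-shRNA8, an shRNA against the long non-coding RNA slincRAD. Each line was harvested after several passages at day -2, before induction, and at day +2, in induction medium with 167 nM insulin, 1 µM dexamethasone and 0.5 mM 3-isobutyl-1-methylxanthine. The input of shRNA8 cells at day +2 carries a label that names that day but calls the cells not yet induced. There was 1 array per line and day, so no difference has a replicate check and no test was made. Precision is limited by the number of arrays. Any SD given is the spread over the probes of the same arrays. The labels do not say whether the shRNA8 line is 1 clone, RNA was not measured, and the assignment of the dyes follows the labels.

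The protocadherin tiles were dim in both channels. The net signal is the background-subtracted brightness in scanner units. Over the 468 probes the median IP net signal was 13.7 in control cells at day -2, 13.6 in control cells at day +2, 16.1 in shRNA8 cells at day -2 and 15.4 in shRNA8 cells at day +2. Over all probes of the same arrays it was 49.1, 48.9, 56.1 and 56.5, and over the 284 probes within 1 Mb on either side of the clusters it was 62.5, 64.3, 71.6 and 75.4. Median input was 3.43, 3.32, 3.94 and 3.77, against 6.49, 5.95, 8.64 and 8.78 over all probes. The scanner software called the IP well above background in 51.3% to 52.6% of the protocadherin probes and in 72.5% to 74.2% of all probes. For input these shares were 17.5%, 18.8%, 20.3% and 22.9%, against 34.8%, 35.7%, 39.2% and 41.6%. The deposited log ratio was listed at 0 for 25% to 31.2% of the protocadherin probes and for 13.1% to 17.6% of all probes.

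Over all its probes alpha had the lowest median IP net signal of the 3 clusters in every array. Its median IP net signal was 10.2, 10.1, 11.5 and 12.2, in the order of arrays given above. Beta had 13.6, 13.7, 16.3 and 14.9, and gamma 15.1, 14.4, 16 and 16.9. Beta and gamma changed places at day -2 in shRNA8 cells, so no order between these 2 clusters held in all 4 arrays. Probes of 60 bp, the dimmest length, made up 40.4% of the alpha probes, 35.1% of the beta and 31.8% of the gamma probes. Among probes of 45 bp alone alpha was the brightest in every array, with 98.4, 95.4, 109 and 109.7, against 79.2, 82.7, 92.5 and 91.4 in beta and 75.5, 75.8, 87.8 and 82.5 in gamma.

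Tiles within a cluster spread far more than the clusters did. In control cells at day -2 the median IP net signal per tile ran from 0.878 to 79.3 in alpha, from 2.13 to 78.5 in beta and from 0.316 to 101 in gamma. Of the 60 tiles, 8 exceeded the median of all probes in any array, and 7 did so in all 4. These were alpha 4, alpha 13, beta 15, the first interval tile, gamma 3, gamma 10, gamma 22 and, in all arrays but control day -2, gamma 20. The same share over other tiles of the array is not given, so this number is not read as a trait of the protocadherin tiles. At gamma 3 (chr18:37832702-37834463), the brightest gamma tile, the tile medians were 101, 101, 107 and 109.7. At gamma 9 (chr18:37873239-37874938), the dimmest of all 60, they were 0.316, 0.105, 0.475 and 0.52. The pattern of bright and dim tiles was shared by the arrays: over the 60 tiles the IP medians of any 2 arrays had a Pearson's r between 0.994 and 0.997 and a Spearman's rho between 0.991 and 0.995. For input r was 0.647 to 0.828 and rho 0.478 to 0.629. These correlations describe points that share probes and array design, and the arrays were made from the same cell line.

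**Figure D1:**
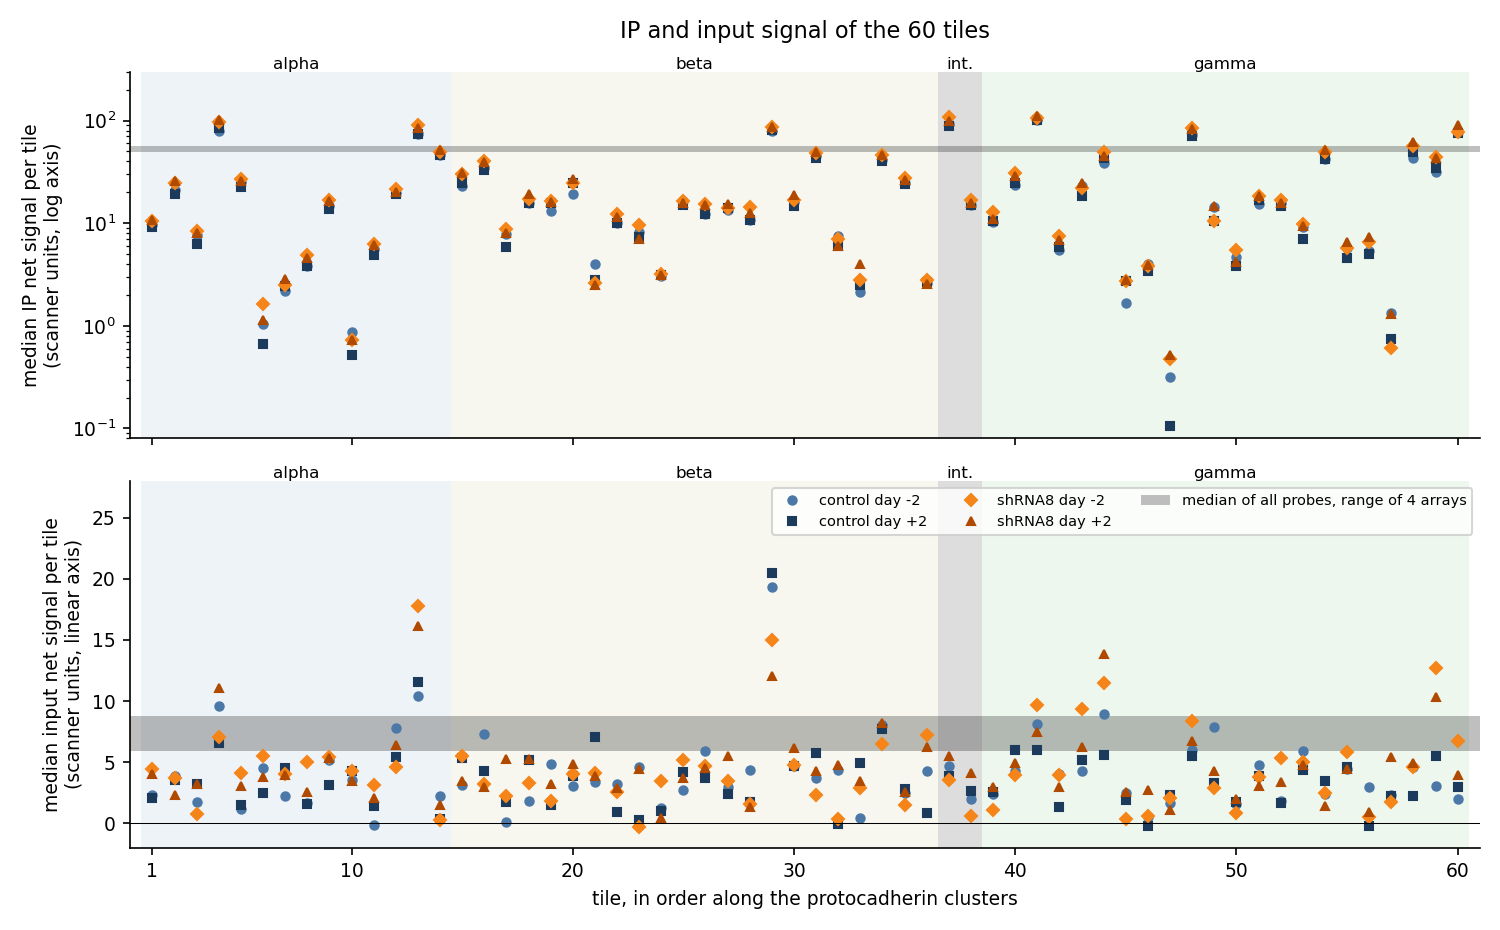
Median net signal of each of the 60 tiles, numbered 1 to 60 along the chromosome, for IP (upper panel, log axis) and input (lower panel, linear axis), in scanner units. Each symbol is 1 array, shading marks alpha, beta, the interval (int.) and gamma, and the grey band spans the medians of all probes in the 4 arrays. Except in the dimmest tiles the 4 IP symbols of a tile lie close together, and 8 tiles exceed the median of an array's probes in 1 or more arrays.

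Probe length moved with these levels. Probes on this array are 45 to 60 bp long, and the median was 53 bp for the protocadherin probes, 46 bp for all probes and 45 bp for the flanking ones. Probes of 60 bp made up 34.2% of the protocadherin probes against 13.2% of all, and probes of 45 bp made up 25.4% against 49.9%. The clusters had medians of 54 bp (alpha), 55 bp (beta) and 51 bp (gamma). Across the whole array IP net signal fell with length, from a median of 121 at 45 bp to 2.14 at 60 bp in control cells at day -2. Protocadherin probes in that array had 89.1 at 45 bp, 29.4 at 46 to 49 bp, 8.74 at 50 to 54 bp, 12.4 at 55 to 59 bp and 1.77 at 60 bp. All probes had 121, 41.3, 21.7, 12.2 and 2.14 in these classes. At matched length the protocadherin probes were dimmer in 4 of the 5 classes in that array, and the gap at 45 bp was smaller than the overall gap. In the other arrays the protocadherin probes were dimmer in all 5 classes. The medians at 45 bp were 92.7 against 122, 98.0 against 139 and 107 against 140.2. At 55 to 59 bp they were 10.6 against 11.8, 11.2 against 13.4 and 13.1 against 13.4. The part of probe length in the low signal was not tested beyond these classes. The files used here give no probe sequences, so base composition and probes that match more than 1 protocadherin gene were not examined.

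**Figure D2:**
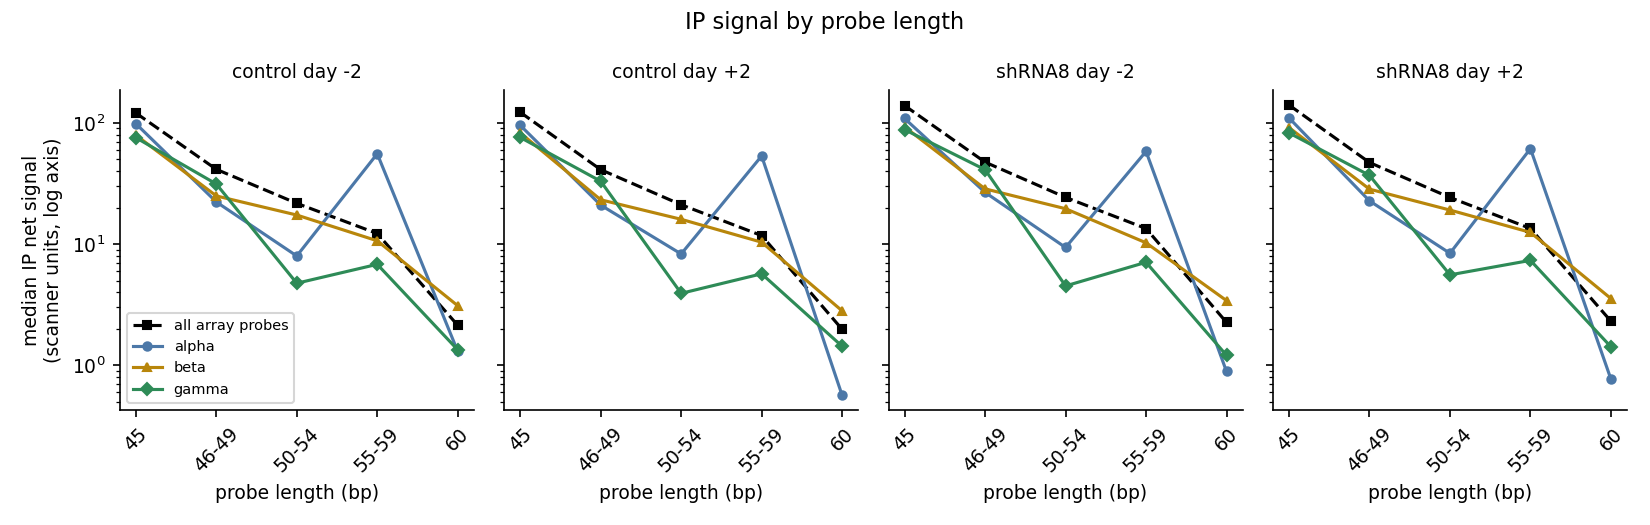
Median IP net signal (scanner units, log axis) by probe length class in each of the 4 arrays, for all array probes (dashed) and for the alpha, beta and gamma probes. All lines fall from 45 bp to 60 bp, and in the 45 bp class each cluster lies below all probes; the alpha point at 55 to 59 bp rests on 10 probes.

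Within a tile the IP signal was concentrated at the end toward higher coordinates, that is, downstream in the direction of transcription. With each of the 58 alpha, beta and gamma tiles divided at its centre, the probes of the start side had a median IP net signal of 7.19, 6.2, 8.27 and 8.01, and those of the end side 23.6, 24.4, 27.8 and 28.4. The end side was brighter in 44, 45, 44 and 44 of the 58 tiles. Among 18702 other tiles of the same size the side toward higher coordinates was brighter in 49.4% to 49.5%. Those tiles mix genes of both strands, so they give the share without regard to direction of transcription. All 3 clusters showed the asymmetry, with 11 of 14 alpha tiles, 17 of 22 beta tiles and 16 or 17 of 22 gamma tiles brighter on the end side.

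The rise lay in the last stretch of the tile. In control cells at day -2 the median IP net signal was 6.41 between 950 and 700 bp before the centre, 8.75 in the 200 bp before the centre and 4.71 in the 200 bp after it. It then rose to 12.2 between 200 and 450 bp, to 53.7 between 450 and 700 bp and to 56.1 between 700 and 950 bp. In shRNA8 cells at day +2 the values in the last 3 bins were 13.5, 59.3 and 66.2. Both lines and both days had this shape. Input rose along the tile as well, with medians of 2.21 in the first bin and 3.78, 5.99 and 8.09 in the last 3 in control cells at day -2, and from 3.21 in the first to 12.5 in the last in shRNA8 cells at day +2.

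Probe length changed along the tile as well. The median length was 57.5 bp in the first bin, 60 bp in the next 4 bins, 50 bp between 200 and 450 bp, 45 bp between 450 and 700 bp and 46 bp in the last bin. Within length classes the end side was brighter in the 3 classes up to 54 bp and dimmer at 55 to 59 bp and at 60 bp, in all 4 arrays. At 45 bp the 15 probes of the start side had a median of 79.2 and the 99 of the end side 95.5 in control cells at day -2. The medians were 28.3 and 30.6 at 46 to 49 bp and 8.25 and 9.95 at 50 to 54 bp. At 55 to 59 bp the order was the other way, 13.7 over 34 probes of the start side and 4.13 over 22 of the end side, as it was at 60 bp, with 1.95 and 1.04 over 114 and 46 probes. Among the 28 tiles with probes of 45 to 49 bp on both sides, the end side was brighter in 21 in each array. Among other tiles with such probes on both sides the end side was brighter in 49% to 49.2%. Over all protocadherin probes of 45 to 49 bp, from these and further tiles, 40 lay on the start side and 134 on the end side. Their medians were 31.9 and 72.4 in control cells at day -2, and their median lengths 46 bp and 45 bp. The part of probe length in the profile was not tested further.

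**Figure D3:**
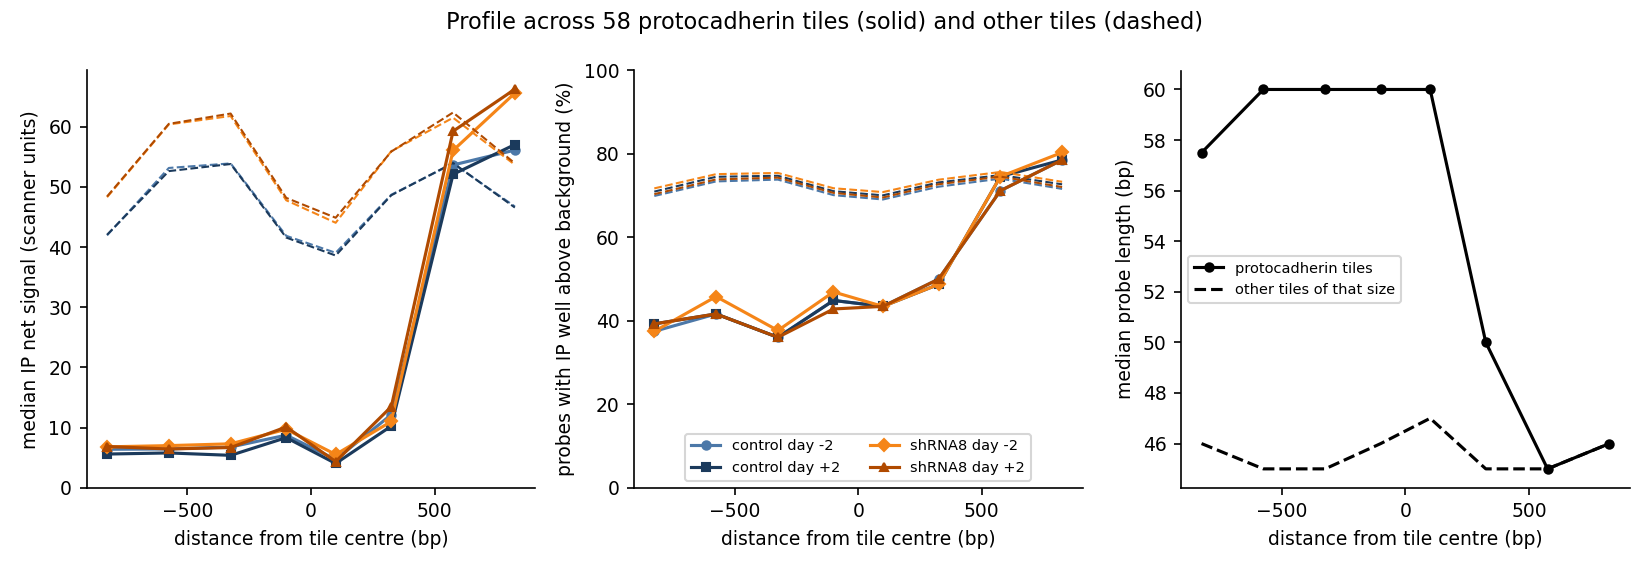
Profile along the 58 alpha, beta and gamma tiles (solid lines with symbols, 1 colour per array) and along other tiles of the same size (dashed), by distance from the tile centre in bp, with transcription of the protocadherin genes running to the right. The panels give the median IP net signal, the share of probes with IP well above background, and the median probe length; in the protocadherin tiles the signal rises and the probes shorten beyond 200 bp.

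The last tiles of the alpha and gamma clusters, where the gene order ends with the C-type members, were brighter as pooled probes. This did not hold tile by tile. Alpha 4 had tile medians of 79.3, 83.9, 97.4 and 100.3, against 73.8, 74.8, 89.6 and 84.6 at alpha 13, the brighter of the last 2. Gamma 3 exceeded gamma 22, the brightest of the last 3, which had 76.8, 75.8, 76.9 and 90.6. Alpha 13 (chr18:37248552-37250239) and alpha 14 (chr18:37302413-37303991) stand apart from the other 12, which end at 37180310. Their 17 probes had a median IP net signal of 57.2, 58.5, 61.8 and 62.3, against 7.98, 8.29, 9.15 and 8.39 in the 97 probes of the other alpha tiles. Median probe length was 45 bp there and 57 bp in the others. Among probes of 45 to 49 bp alone the medians were 91.7, 90.7, 105 and 105, against 70.4, 73.2, 69.6 and 82.0.

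Gamma 20, 21 and 22 (from 37964770 to 37979422) likewise follow a gap after gamma 19, which ends at 37925725. Their 25 probes had a median IP net signal of 43.6, 49.5, 56.3 and 61.5, against 9.16, 8.94, 9.73 and 9.49 in the 145 probes of the other gamma tiles. Probe length was again 45 bp against 53 bp. At 45 to 49 bp the medians were 87.8, 93.4, 103 and 106, against 54, 57.5, 63.3 and 62.6. This class is not matched in length, here or in alpha. In control cells at day -2 protocadherin probes had a median of 89.1 at 45 bp and 29.4 at 46 to 49 bp. The share of 45 bp probes was not compared between the last tiles and the others, and the part of probe length was not tested. All of these are levels of the IP channel and not ratios to input. In the ratio the last 3 gamma tiles had medians of 0.68, 0.47, 0.61 and 0.21 on the log2 scale over 10 probes, against -0.06, -0.18, -0.18 and -0.14 over 49. The last 2 alpha tiles had -0.11, -0.16, -0.03 and -0.07 over 10 probes, against -0.21, -0.47, -0.16 and -0.10 over 36.

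Enrichment is given from here on as the log2 ratio of processed IP to processed input signal, with the median of each array set to 0 and the 4 distributions made equal by quantile normalization. A ratio of 0 is therefore the middle of the array and not an absence of methylation. It was taken only for probes free of quality flags whose input was above background in all 4 arrays, which 171 of the 468 protocadherin probes met (36.5%, against 54.4% of all probes and 61.6% of the flanking ones). By cluster these were 46 alpha, 62 beta, 59 gamma and 4 interval probes. Dim members are thus under-represented in every ratio below. The median ratio of alpha probes was -0.19, -0.43, -0.08 and -0.09, that of beta probes 0.04, -0.02, 0.36 and 0.12, and that of gamma probes 0.05, -0.14, -0.12 and -0.07. The quartiles of all probes were -1.11 and 0.85.

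Passing probes no more than 1000 bp apart formed a region when there were at least 3. Of the 60 tiles, 2 had no passing probe and 25 had 1 or 2. The other 33 had 3 or more, and 30 of them formed a region, 9 in alpha, 12 in beta and 9 in gamma. The array as a whole had 17452 regions and the flanks 31. Averaged over the arrays, the region ratio ran from -2.77 to 0.89 with a median of -0.26, against a median of -0.20 over all regions of the array. A ratio below -1 was found in 9 of the 30 (30%), against 17.3% of all regions and 7 of the 31 in the flanks. With the trend on probe length removed these shares were 5 of 30 (16.7%) and 16%, so the excess of low regions was not seen on that scale. Ratios above 0.5 occurred in 3 of 30, against 16.3% of all regions, and with the trend removed in 5 of 30 (16.7%), against 16.8%.

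In alpha, 5 neighbouring regions from alpha 8 to alpha 12 were all below -1, with means over the arrays of -1.44, -1.21, -1.60, -1.88 and -1.49. The lowest, alpha 11 (chr18:37169911-37170775, 4 probes), had -1.75, -2.22, -1.52 and -2.03. Alpha 10 (chr18:37163999-37165273) had -1.43, -1.83, -1.42 and -1.73, and alpha 12 (chr18:37178584-37180310) had -1.64, -1.71, -1.17 and -1.43. All 5 regions were below -1 in every array. The spread over probes was wide: the SD was 3.97 to 4.73 over the 3 probes of alpha 8, 1.49 to 2.02 in alpha 9, 1.69 to 1.95 in alpha 10, 0.73 to 1.81 in alpha 11 and 1.5 to 1.63 in alpha 12. With the trend on length removed, alpha 10 and alpha 11 averaged -1.17 and -1.63 and stayed below -1, while alpha 8, alpha 9 and alpha 12 averaged -0.86, -0.82 and -0.69. Above the block's level stood alpha 7 (chr18:37132694-37133990) with 0.67, 0.63, 0.81 and 0.56, alpha 4 (chr18:37111043-37112841), the widest alpha region, with 0.00, 0.36, 0.63 and 0.44, and alpha 14 (chr18:37303257-37303778) with 0.06, 0.02, -0.10 and -0.08.

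The beta cluster held both the lowest and the highest region. Beta 22 (chr18:37676712-37678077, 3 probes), the last of its cluster, had ratios of -2.97, -2.68, -2.60 and -2.84. Its mean IP net signal was 8.58, 8.39, 9.95 and 9.56 and its mean input 12.5, 8.14, 11.2 and 12.2, so IP and input were at about the same brightness. Only 0.86% of all regions had a lower average, or 0.97% with the trend on length removed. Beta 1 (chr18:37423352-37424988, 4 probes) stood at the other end of the cluster, with 0.79, 0.48, 1.08 and 1.23, IP of 638, 628, 715 and 716, and input of 116, 115, 134 and 123. Low values were also found at beta 15 (chr18:37632561-37633694), with -2.12, -2.00, -1.37 and -1.63, and at beta 11 (chr18:37579977-37581442), with -1.17, -1.21, -0.81 and -1.54. Beta 15 was one of the 8 tiles bright in IP and yet among the lowest in ratio, and its mean input was bright as well (230, 121, 130 and 189, beside an IP of 165, 168, 179 and 179.7). Next in rank within the cluster were beta 17 (chr18:37643413-37644995), with 0.68, 0.53, 0.79 and 0.97, and beta 20 (chr18:37662641-37664314), with -0.08, -0.14, 0.38 and -0.04. Beta 20 averaged 0.03, near the middle of the array, with an SD over its 7 probes of 1.34 to 1.82. The widest beta region, beta 7 (chr18:37500056-37501750), had -0.95, -0.93, -0.74 and -0.90.

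Gamma regions lay closer to the middle of the array, 8 of the 9 averaging between -0.66 and 0.42. The exception was gamma 17 (chr18:37914140-37915618), with -1.72, -1.73, -2.05 and -1.88 and an SD over its 4 probes of 3.04 to 3.35. Its probes therefore differed from each other more than the region did from 0. The highest were gamma 3 (chr18:37832702-37834463), also the widest, with 0.37, 0.41, 0.29 and 0.61, gamma 22 (chr18:37978461-37979422), with 0.56, 0.44, 0.49 and 0.11, and gamma 20 (chr18:37965630-37966522), with 0.02, 0.37, 0.14 and 0.17. Both gamma 20 and gamma 22 are among the last 3 tiles described above. Gamma 2 (chr18:37827728-37829130) had -0.64, -0.90, -0.83 and -0.25, and gamma 6 (chr18:37848418-37849881) had -0.06, -0.27, -0.31 and -0.45.

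**Figure D4:**
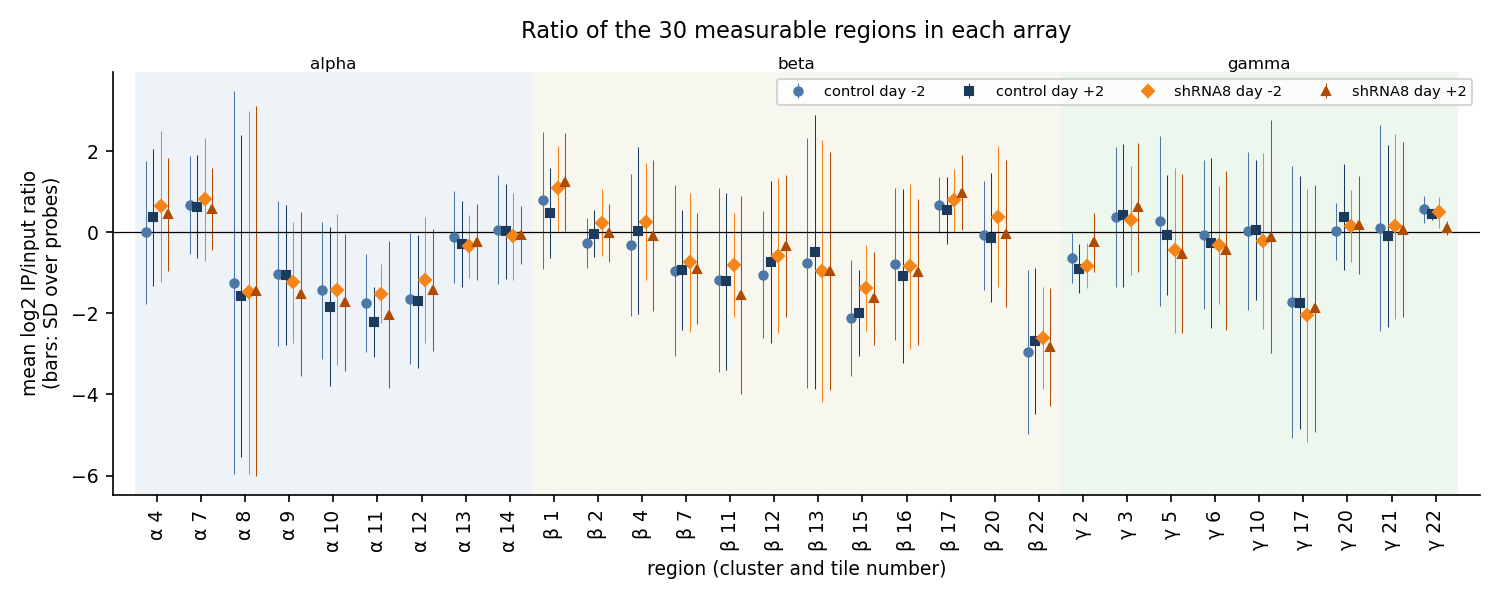
Mean log2 ratio of IP to input in each array for the 30 regions, labelled by cluster (α, β, γ) and tile number, with bars of 1 SD over the probes of the region. The differences between regions exceed those between arrays, with a low block from alpha 8 to alpha 12 and the lowest region at beta 22.

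Whether the 2 lines and the 2 days differed was examined in 5 comparisons. The size rule asked for a mean difference over a region's probes of 0.6 or more in log2 units, up or down (1.52-fold), shared in sign by 75% of these probes or more. Because the regions were dim (median input net signal 24.8, against 57 over all regions), the array's regions were also divided at that input of 24.8, with 3403 at or below it and 14049 above. The 30 protocadherin regions fall 15 and 15, and at or below the division the array's shares past the rule were higher in all 5 comparisons.

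Before induction, at day -2, 2 protocadherin regions were higher in shRNA8 cells and 1 was lower, or 3 of 30 (10%). The background over all regions of the array was 2.43% (1.18% higher and 1.25% lower), or 5.82% at or below an input of 24.8 and 1.61% above. Of the members, 2 of 15 at or below and 1 of 15 above met the rule. In the flanks 0 of 31 met the rule. Beta 15 was higher by 0.75 ± 0.38, from -2.12 to -1.37, in all 3 probes. Alpha 4 was higher by 0.64 ± 0.61, from 0.00 to 0.63, in 5 of 6 probes. Gamma 5 (chr18:37844168-37845039) was lower by -0.72 ± 0.44, from 0.27 to -0.45, in all 4 probes. In each the IP channel moved less than the input did: the IP differed by -0.06, 0.04 and -0.17 and the input by -0.89, -0.60 and 0.62 for beta 15, alpha 4 and gamma 5. At day +2, on other arrays, these regions differed by 0.37, 0.07 and -0.47, with the same sign and below the size rule. The IP then differed by 0.05, 0.01 and 0.20 and the input by -0.48, -0.06 and 0.62. The IP difference thus changed sign between the days in beta 15 and gamma 5.

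By cluster, 10 of 12 beta regions had a difference above 0 at day -2 and 7 of 9 gamma regions one below 0, while alpha had 5 above and 4 below. Over probes the mean difference was 0.20 ± 0.63 in beta, -0.09 ± 0.56 in gamma and 0.04 ± 0.70 in alpha, and the SD over all probes of the array was 0.54. Over all regions of the array 51.0% were above 0. By probes, 33 of 62 in beta (53.2%), 22 of 59 in gamma (37.3%) and 26 of 46 in alpha (56.5%) were above 0, against 51.6% of all probes. With probes kept only where input was well above background, the beta mean was 0.01.

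At day +2, 2 regions were higher in shRNA8 cells and none lower (6.67% of 30, against a background of 3.34%, with 1.40% higher and 1.94% lower). At or below an input of 24.8 the rule was met by 1 of 15 members and 7.76% of the array's regions, and above it by 1 of 15 and 2.27%. Beta 1, the region with the highest ratio, was higher by 0.75 ± 0.87, from 0.48 to 1.23, in 3 of 4 probes, with an IP difference of -0.01 and an input difference of -0.69. Gamma 2 was higher by 0.65 ± 0.60, from -0.90 to -0.25, in 3 of 4 probes, with 0.11 in IP and -0.63 in input. Neither met the rule at day -2, where they differed by 0.29 and -0.19, and no region met it at both days. At this day 8 of 12 beta regions were above 0 and 6 of 9 gamma regions below 0, against 52.5% of all regions above 0. The probes did not show this split: 30 of 62 beta probes (48.4%) and 32 of 59 gamma probes (54.2%) were above 0, against 54.2% of all probes. Mean differences over probes were 0.08 ± 0.60 in beta, 0.00 ± 0.70 in gamma and 0.05 ± 0.64 in alpha.

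The line differences at the 2 days share no array. Over the 30 regions they had the same sign in 20 (66.7%, against 56.9% of all regions), and their correlation was 0.38 (Pearson's r) or 0.36 (Spearman's rho), against r of 0.19 over all regions. The regions of a cluster are not independent, and the values are a description.

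**Figure D5:**
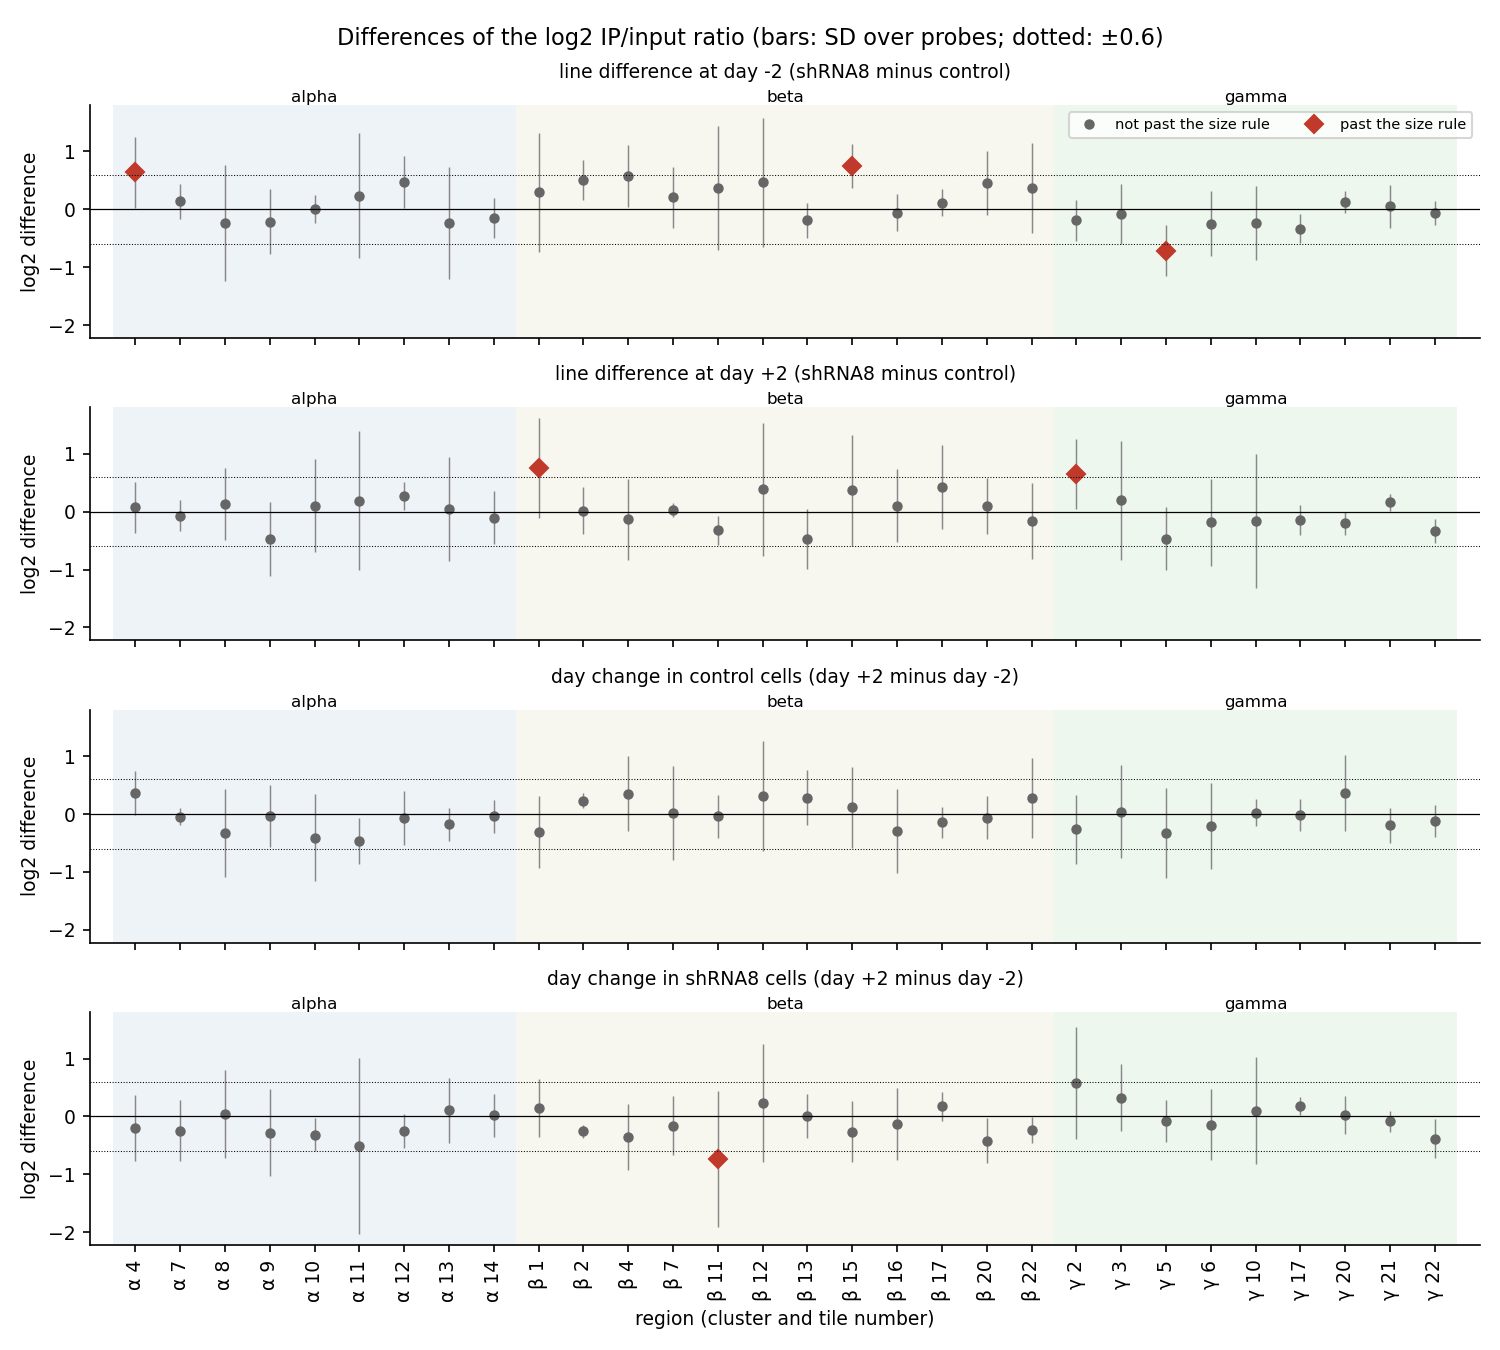
Mean difference of the log2 ratio for each of the 30 regions in the line comparison at day -2 and at day +2 and in the day comparison in control and in shRNA8 cells, with bars of 1 SD over probes and dotted lines at the size of 0.6. Diamonds mark regions that met the size rule, 3, 2, 0 and 1 from top to bottom.

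In control cells, where the day comparison asks what went with induction in unmodified cells, 0 of 30 regions met the rule (background 2.09%, with 0.986% higher and 1.11% lower, 5.61% at or below an input of 24.8 and 1.24% above). The changes ran from -0.47 at alpha 11 to 0.36 at alpha 4. In alpha 8 of 9 regions had a change below 0, with alpha 4 the exception, whereas beta had 7 of 12 above 0 and gamma 6 of 9 below, against 50% of all regions above 0. The mean change over alpha probes was -0.14 ± 0.50, against 0.05 ± 0.54 in beta and -0.01 ± 0.62 in gamma. The sign of the alpha mean was not kept in all alternatives: it was 0.03 with input well above background and 0.00 without background subtraction. In the flanks 1 of 31 regions was higher.

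In shRNA8 cells 1 of 30 regions met the rule, a share (3.33%) close to the background of 3.19% (0.980% higher and 2.21% lower, with 7.70% at or below an input of 24.8, where this member lies, and 2.10% above). Beta 11 was lower at day +2 by a mean of -0.73 ± 1.18, from -0.81 to -1.54. All 3 probes had a negative sign, but the median over them was -0.05, below the size rule. Its IP changed by -0.02 and its input by 0.61. This call was lost after a within-array loess and with the trend on length removed, where fewer than 75% of the probes shared the sign. In both settings the 1 region past the rule was instead gamma 2, higher by 0.87 and 0.67. Of the alpha regions 6 of 9 were below 0, against 53.0% of all regions above 0, and the mean over alpha probes was -0.13 ± 0.61, against -0.07 ± 0.57 in beta and 0.09 ± 0.58 in gamma. With input well above background the alpha mean was 0.07, and without the filter on input it was 0.01. The day changes of the lines, which share no array, had the same sign in 17 of 30 regions (56.7%, against 52.8% of all regions), with r of -0.02 and rho of 0.01.

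The day change differed between the lines by the size rule in 2 of 30 regions (6.67%, background 5.80%, with 2.76% higher and 3.04% lower). Both lie at or below an input of 24.8, where 13% of the array's regions met the rule, against 4.06% above. Gamma 2 changed by -0.26 in the control line and by 0.58 with the shRNA, a difference of 0.84 ± 0.83. Beta 4 (chr18:37466018-37467508) changed by 0.35 and -0.35, a difference of -0.71 ± 0.39, from ratios of -0.31 and 0.04 in control cells and 0.26 and -0.09 in shRNA8 cells. The same difference was 0.16 and 0.09 in the IP channel and -0.73 and 0.70 in the input, for gamma 2 and beta 4. This comparison is built from all 4 arrays and carries the error of each.

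The IP channel was also compared alone, over probes with IP well above background in all 4 arrays (54 alpha, 87 beta and 86 gamma probes). In the line and day comparisons the mean log2 difference of a cluster was between -0.04 and 0.02, with an SD over probes of 0.10 to 0.15, against 0.12 to 0.13 over all 125183 such probes. Among the 46 tiles with at least 3 such probes the means ran from -0.21 (alpha 3, day change in control cells) to 0.18 (beta 3, line difference at day +2). No protocadherin region met the size rule in the IP channel alone in any of the 5 comparisons. Over the array that share was 0% in the line and day comparisons and 0.00586% in the difference of the day changes, so nothing is read from it about these members. In all of the 8 calls listed above the input moved by 0.598 or more in size and the IP by 0.17 or less. Without background subtraction all 8 were below the size rule, as they were without the filter on input. With input well above background none of the 8 formed a region. The part of input brightness in the calls was not tested beyond the division of regions by input.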

How the data were processed

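The intensity values (median, background-subtracted and processed signal of each spot and channel) and the log10 ratio of the processed signals were deposited by the authors as output of Agilent Feature Extraction 11.0.1.1, and probe positions are in mm9, per the file headers. The submitters' processing notes name limma without its role. Per the labels' protocols 1 µg of DNA was labelled per sample.

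Probes with a saturation, non-uniformity or outlier flag in any array were removed (174301 of 174638 kept), as were probes whose input was not above background in all 4 arrays (95060 kept). The ratio was median-centred and quantile normalized, which removes overall differences between arrays. The IP and input differences beside a call are of log2 net signal, centred on each array's median. In the ratio with length removed, the median of all probes of the same length was subtracted.

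Regions named are all that met the size rule, the 3 highest and 3 lowest of each cluster and the widest of each. Alpha 8, alpha 9, alpha 13 and single tiles named for their IP signal were chosen after their values were seen. Members, clusters and lists were chosen with earlier results of these data known. No covariate, test or p-value was used with 1 array per group. Alternatives were other scalings, filters, sizes and channels. The region script was tested on simulated data. No sequence is printed, as probe sequences are not used here. The loess was run in limma 3.58.1 with R 4.3.3, and all else in Python 3.11.15 with matplotlib 3.10.9, scipy 1.17.1, pandas 2.3.3 and numpy 2.4.6.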

Additional observations from a re-analysis of the deposited data

Results flagged for a closer look

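At 2 regions the mean change of the ratio from day -2 to day +2 had opposite signs in the 2 lines. The difference between these changes was past the size rule, while the change within either line was not. At beta 4 (chr18:37466018-37467508) the change was 0.35 in control cells and -0.35 in shRNA8 cells, and the difference was -0.71. At gamma 2 (chr18:37827728-37829130) it was -0.26 and 0.58, and the difference was 0.84. The change at gamma 2 in control cells was up in 2 probes and down in 2. In the IP channel the difference was 0.09 at beta 4 and 0.16 at gamma 2. Each line and day has 1 array, so neither difference was tested, and 5.80% of all regions of the array met the same size rule. Among those with input at or below 24.8 the share was 13%, and the mean input was 14 at beta 4 and 20.2 at gamma 2.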

How the results depend on the processing

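Of the 15 mean differences of a cluster, 9 had the opposite sign in 1 or more of the 8 alternatives that keep the ratio. The alpha day change in control cells, -0.14, ran from -0.19 to 0.03 and the beta line difference at day -2, 0.20, from 0.01 to 0.30. Of 75 alternative counts of protocadherin regions past the size rule, 40 stayed within 1.5 times the count reported and 35 did not. The cause of those changes was not tested. The deposited log ratio, 1 of the alternatives in both tallies, is the same ratio of processed signals as the main one. It gave the same values for every reported call, so its agreement is no check. In the order line difference at day -2, line difference at day +2, day change in control cells, day change in shRNA8 cells and difference of the day changes, the counts reported were 3, 2, 0, 1 and 2. They became 6, 4, 1, 1 and 2 after a within-array loess, 6, 5, 1, 2 and 5 at a minimum size of 0.4, and 1, 0, 0, 0 and 0 when 5 probes were required. All 5 were 0 at a minimum size of 1, without background subtraction and in the IP channel alone, where the array as a whole gave 0% to 0.00586%. With input well above background the counts were 0, 0, 0, 0 and 1. None of the reported calls formed a region there, and the 1 counted was gamma 6. Without the filter on input, the line difference at day +2 gave 0 and the difference of the day changes 1. None of the reported calls met the rule without that filter. The regions that did were beta 2 and beta 9 for the line difference at day -2, beta 9 for the day change in shRNA8 cells and beta 1 for the difference of the day changes. Median centring alone gave 2 for the day change in shRNA8 cells, and the input channel alone gave 0 there. A loess, or removal of the trend on length, gave gamma 2 higher there in place of beta 11 lower. The median over probes gave 0 there and 1 for the difference of the day changes. When every probe had to move the same way, the line difference at day +2 gave 0. Gamma 5 was past the rule in the line difference at both days in some alternatives. It was lower by -1.01 and -0.90 after a within-array loess and by -0.74 and -0.65 with the median over probes. At a minimum size of 0.4 it was lower by -0.72 and -0.47, and in the input channel alone it was higher by 0.616 and 0.618. No paired analysis was possible because each group has 1 array, and for the same reason no array could be left out. Dim input limits the ratio, which 171 of the 468 protocadherin probes had.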
